A study of Mus musculus with 5 samples.

Results

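The 39 coding genes of the 4 mouse Hox clusters were read in RNA-seq of primary adipocytes from epididymal fat, the visceral depot beside the testis. They were taken by name, as every row of the expression table whose symbol is Hoxa, Hoxb, Hoxc or Hoxd followed by a number, and they are 39 of 24330 symbols. The family itself was chosen with earlier results of these data known. The clusters held 11 (Hoxa), 10 (Hoxb), 9 (Hoxc) and 9 (Hoxd) of them. The 3 libraries, replicates 1, 2 and 3, came from wild-type C57BL/6 mice aged 17 weeks. The series also listed bisulfite libraries of adipocytes from mice of that age with an adipocyte-specific Dnmt1 knockout (1 library, Dnmt1 AKO) and from wild-type mice (1 library), which were not analysed here, so no genotypes are compared. Only 1 depot was sampled, and no difference between fat depots can be read from these data. The labels do not say whether the 3 libraries came from separate animals or pools, so each SD describes the scatter among these libraries, part or all of which may be technical. Values are FPKM, a unit that corrects fragment numbers for the length of the transcript and the size of the library, and the number of reads behind them is unknown.

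Hox genes encode homeodomain transcription factors. They lie in clusters in the order in which they are switched on along the head-to-tail axis of the embryo, with low paralog numbers at the head end and high ones at the tail end. Genes with the same number in different clusters are paralogs descended from 1 ancestral gene. Adult mesenchymal cells, those of fat included, keep much of the Hox pattern of the place where they arose, and fat depots are known to differ in it.

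The Hox genes were expressed mainly in a central block, whose posterior edge was steep in Hoxa and Hoxd. The anterior side of Hoxa rose in steps, with means of 0.962, 1.87, 2.82 and 6.20 FPKM from Hoxa2 to Hoxa5. In Hoxb the block ran from Hoxb2 to Hoxb9. All 15 genes with paralog numbers 4 to 8 reached FPKM 1, the level called detected here, in every library. Of the 8 genes with numbers 1 to 3, 3 did so, and of the 16 genes with numbers 9 to 13, 2 did so. That made 20 of 39 Hox genes, 51.3%, beside 45.5% of all 24330 symbols. By cluster the detected genes numbered 5 of 11 in Hoxa, 8 of 10 in Hoxb, 4 of 9 in Hoxc and 3 of 9 in Hoxd. The mean lay at FPKM 1 or more for 21 genes, from 0.1 to 1 for 5 and above 0 but under 0.1 for 7, and 6 were listed at 0 in all 3 libraries (Hoxb13, Hoxc11, Hoxc12, Hoxc13, Hoxd12 and Hoxd13), as were 22.4% of all symbols. Just above FPKM 1 in mean stood Hoxa6 at 1.18 ± 0.153 and Hoxd4 at 1.38 ± 0.238, and just below it Hoxa2 at 0.962 ± 0.166 (SD, n = 3).

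**Figure D1:**
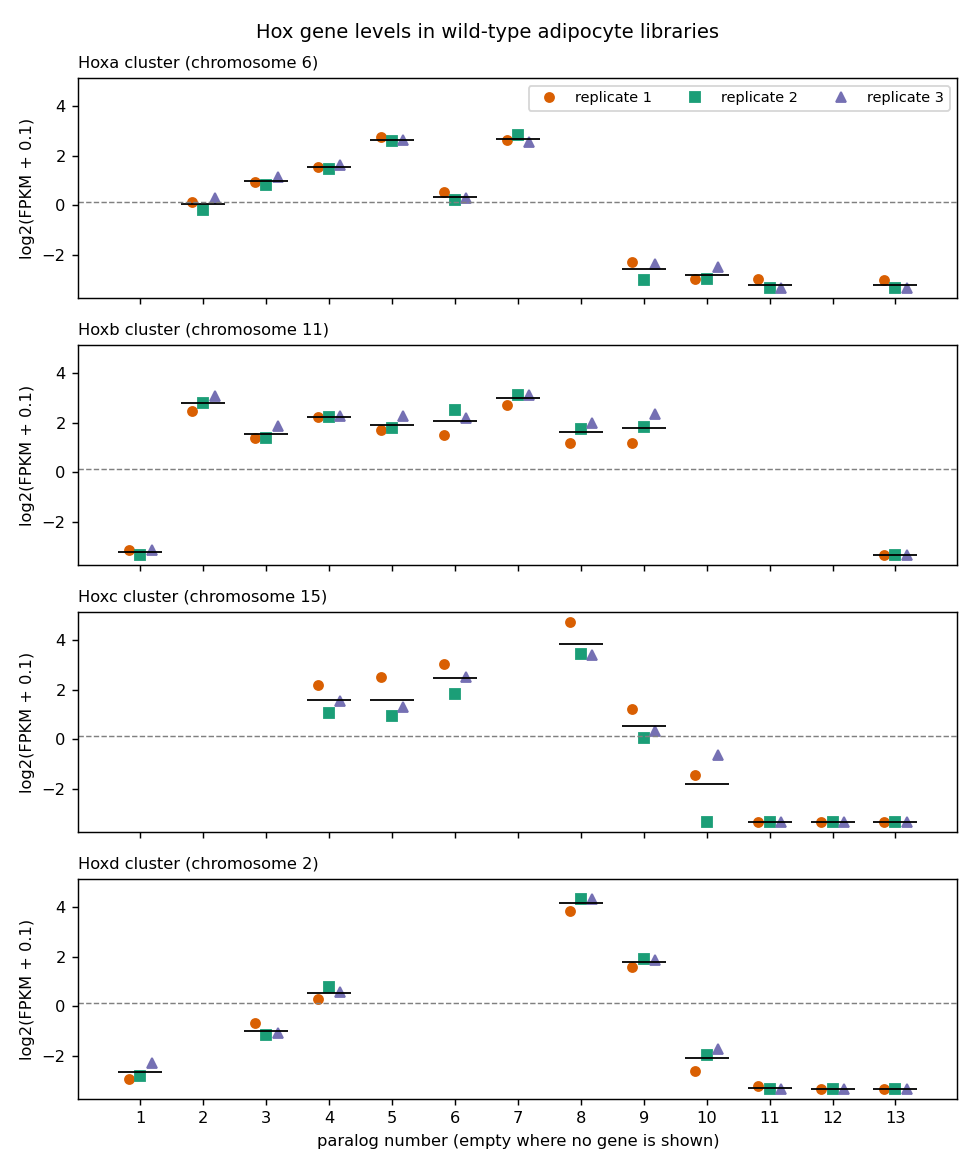
Level of the Hox genes named in the text as log2(FPKM + 0.1), by cluster and paralog number. Each symbol is 1 library, the bar is the mean over the 3 libraries, and the dashed line marks FPKM 1. In Hoxa, Hoxc and Hoxd the level drops steeply between numbers 7 and 10, and in Hoxb the 8 genes from number 2 to 9 all lie above the line in every library.

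The posterior edge of the block did not fall at the same paralog in every cluster. In Hoxa it lay between Hoxa7 and Hoxa9, which are 4.52 kb apart on chromosome 6. Hoxa9 had 0.105, 0.0250 and 0.0932 FPKM in replicates 1, 2 and 3, and Hoxa7 had 6.06, 7.11 and 5.70, a mean log2 ratio of Hoxa9 to Hoxa7 of -5.22 ± 0.542. The groups of values did not overlap. In Hoxd the edge lay between Hoxd9 and Hoxd10, 2.66 kb apart on chromosome 2. Hoxd10 stood at 0.0661, 0.156 and 0.203 FPKM and Hoxd9 at 2.94, 3.70 and 3.54, a log2 ratio of -3.89 ± 0.304. Hoxd9 itself was below Hoxd8 in every library, with a log2 ratio of -2.37 ± 0.112. In Hoxc the level also fell in 2 steps. The log2 ratio of Hoxc9 to Hoxc8 was -3.31 ± 0.232. Hoxc10 was lower again in every library, with 0.271 and 0.542 FPKM in replicates 1 and 3 and a listed 0 in replicate 2. In Hoxb the next gene beyond Hoxb9 is Hoxb13, 74.7 kb away, and it was listed at 0 in every library. At the other end of that cluster, Hoxb1 had 0.0145 and 0.0137 FPKM in replicates 1 and 3 and a listed 0 in replicate 2, whereas its neighbour Hoxb2 averaged 6.87 ± 1.44. Each of these ratios (Hoxa9 to Hoxa7, Hoxd10 to Hoxd9, Hoxd9 to Hoxd8 and Hoxc9 to Hoxc8) had the same sign in 3 of 3 libraries. For each, the exact two-sided sign-flip permutation p was 0.25 (n = 3). It was 0.385 after Benjamini-Hochberg adjustment over the 77 pairs of Hox genes compared. A sign-flip test over 3 libraries cannot give a p under 0.25, so no ratio could pass 0.05. The ratios were taken on the log2(FPKM + 0.1) scale, and those of genes near 0 depend on the 0.1 added.

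The upstream sequences of the genes on either side of the Hoxa and Hoxd edges are shown because the series concerned DNA methylation, which in mammals falls mainly on CpG. Each is the 250 bases before the start of the gene, 5′ to 3′ on the gene's own strand, from RefSeq (GRCm38.p6), with every CpG in capitals. Hoxa9 and Hoxa7 lie on the minus strand at chr6:52227371-52227620 and chr6:52218574-52218823, and Hoxd10 and Hoxd9 on the plus strand at chr2:74691641-74691890 and chr2:74697513-74697762.
Hoxa9: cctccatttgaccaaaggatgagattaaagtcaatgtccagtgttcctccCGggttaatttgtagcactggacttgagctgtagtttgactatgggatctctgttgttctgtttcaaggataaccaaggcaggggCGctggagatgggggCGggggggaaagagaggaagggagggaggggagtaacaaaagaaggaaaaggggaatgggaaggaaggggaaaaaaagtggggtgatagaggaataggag
Hoxa7: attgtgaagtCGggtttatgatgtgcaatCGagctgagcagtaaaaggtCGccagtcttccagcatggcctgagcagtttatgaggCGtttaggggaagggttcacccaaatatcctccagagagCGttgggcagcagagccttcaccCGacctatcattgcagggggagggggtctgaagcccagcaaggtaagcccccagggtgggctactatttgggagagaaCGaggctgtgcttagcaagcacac
Hoxd10: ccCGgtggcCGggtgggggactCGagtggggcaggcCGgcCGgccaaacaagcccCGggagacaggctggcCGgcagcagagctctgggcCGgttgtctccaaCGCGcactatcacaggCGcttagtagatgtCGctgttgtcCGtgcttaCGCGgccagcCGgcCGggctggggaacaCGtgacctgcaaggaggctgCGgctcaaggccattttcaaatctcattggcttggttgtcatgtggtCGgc
Hoxd9: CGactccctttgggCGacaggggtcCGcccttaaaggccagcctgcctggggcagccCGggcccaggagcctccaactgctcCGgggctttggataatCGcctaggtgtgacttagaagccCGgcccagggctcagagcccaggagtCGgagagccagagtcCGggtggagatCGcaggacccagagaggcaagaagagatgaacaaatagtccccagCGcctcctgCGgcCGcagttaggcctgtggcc
The sequence of Hoxa9 held 3 CpG and that of Hoxa7 held 7. That of Hoxd10 held 20 and that of Hoxd9 held 13. The low gene thus had fewer CpG than its expressed neighbour at the Hoxa edge and more at the Hoxd edge.

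RefSeq promoter windows of 300 bases, from 250 before to 50 after the start, were at hand for 22 of the 39 genes. Of Hoxb only Hoxb1, Hoxb4 and Hoxb8 had one, and of Hoxc only Hoxc4, so the windows were mostly those of Hoxa and Hoxd. There were 24 windows, and for Hoxa10 and Hoxd11 only the one starting at the edge of the deposited locus was kept. In 20 of the 22 kept windows the start was that edge. Their CpG observed over expected, which corrects the number of CpG for the C and G content, had a median of 0.594 and ranged from 0.257 (Hoxd11) to 1.02 (Hoxa5), beside a median of 0.384 over all 32851 windows of the same length. It was 0.6 or more in 10 of 22 Hox windows (45.5%) and in 35.8% of all windows. The values over all windows use every window, whereas the Hox side keeps 1 a gene. Both Hox windows left out lay above 0.6. The median was 0.583 over the 10 genes detected in every library and 0.675 over the other 12. High and low ratios occurred at both ends of expression: Hoxa5, at 6.20 ± 0.370 FPKM, and Hoxa13, listed at 0 in replicates 2 and 3, had 1.02 and 0.918, while Hoxd8, the highest Hox gene by mean, and Hoxd11 had 0.367 and 0.257. The Hoxd11 window that was not kept had 0.875, however, and that of Hoxa10 had 0.853. Hoxa9, at a mean of 0.0742 FPKM, had 0.280. The letters CCAAT or their reverse complement ATTGG were found in 14 of 22 Hox windows (63.6%) and in 37.4% of all windows. TATAAA or its reverse complement TTTATA was found in 3 of 22 (13.6%), those of Hoxb8, Hoxd4 and Hoxd13, and in 13.6% of all, so its share was that of promoters at large.

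**Figure D2:**
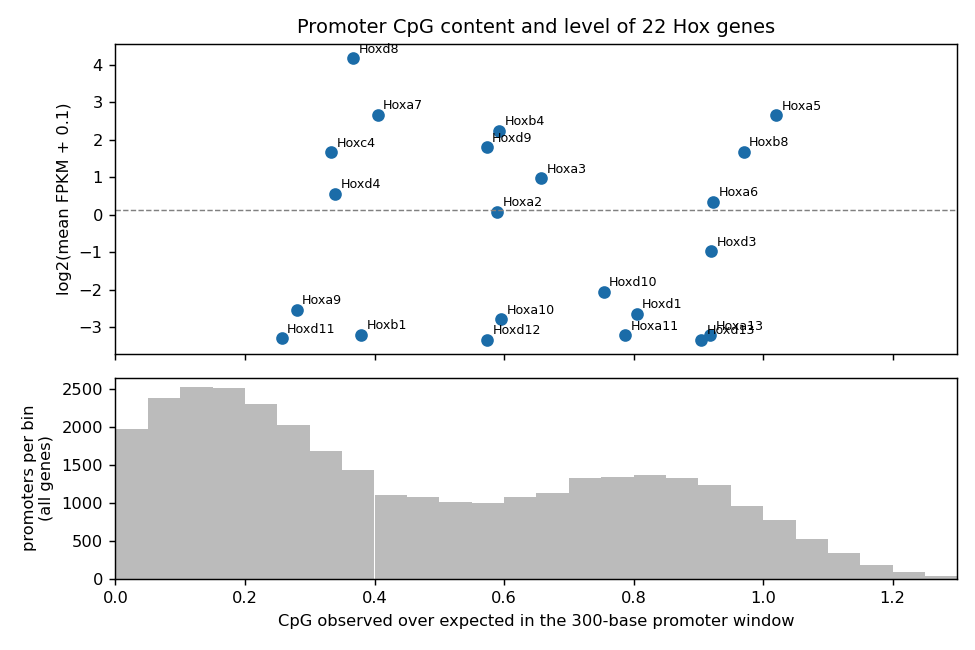
Upper panel: mean level of 22 Hox genes, as log2(mean FPKM + 0.1), against CpG observed over expected in the promoter window, with the dashed line at FPKM 1. Lower panel: the number of promoters of all genes in each bin of that ratio, where 35.8% lie at 0.6 or more. The 10 genes detected in every library run from 0.333 to 1.02 and the other 12 from 0.257 to 0.920, by the window kept for each gene.

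The 2 highest means belonged to genes with paralog number 8. Hoxd8, on chromosome 2 from 74704615 to 74707932, had 14.3, 20.0 and 19.9 FPKM in replicates 1, 2 and 3. Hoxc8, on chromosome 15 from 102990539 to 102994254, had 26.2, 10.8 and 10.4. Their order changed between libraries, with Hoxc8 the higher in replicate 1 only. The log2 ratio of Hoxc8 to Hoxd8 was 0.87, -0.88 and -0.93 (exact sign-flip permutation p = 0.5, adjusted p = 0.688, n = 3). The third paralog, Hoxb8, stood at 2.19, 3.29 and 3.87 and was below Hoxc8, with a log2 ratio of -2.21 ± 1.15, and below Hoxd8, with -2.52 ± 0.164, in every library. Hoxc8 marks the thoracic and brachial region of the embryo. Hoxd8 and Hoxc8 together made up 35.0%, 29.9% and 27.2% of the summed Hox FPKM in replicates 1, 2 and 3, and the 10 highest genes made up 72.3%, 74.1% and 70.4%. Hoxd8 lay at percentile 84.7 of the mean FPKM over all symbols and Hoxc8 at 82.9, so even the highest Hox genes were of moderate abundance.

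**Figure D3:**
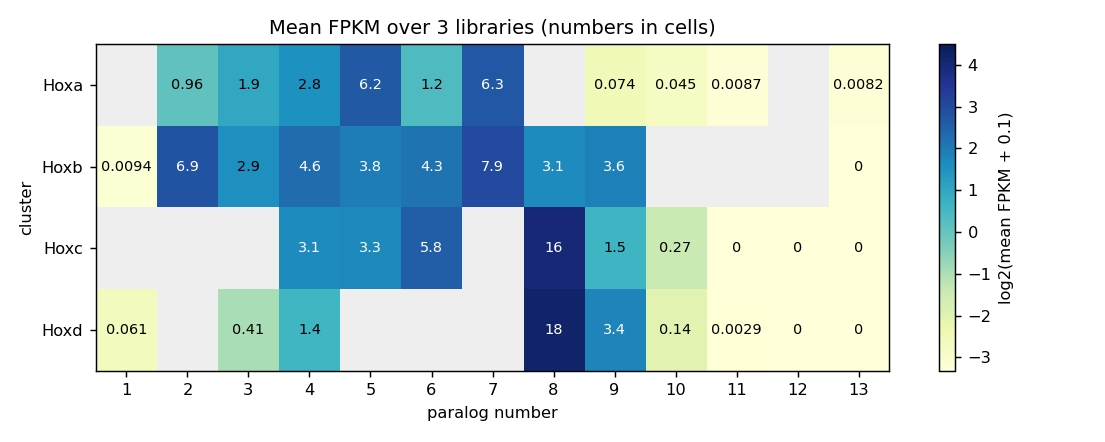
Mean FPKM over the 3 libraries for the Hox genes named in the text, by cluster (rows) and paralog number (columns), with the colour on a log2 scale. Grey cells show no gene. The darkest cells are Hoxd8 and Hoxc8, at 18.1 and 15.8 FPKM, and the columns from 10 to 13 are pale in every cluster.

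Among the genes numbered 2 and 3 the Hoxb members were the highest. Anterior Hox genes pattern the hindbrain and the pharyngeal arches. Hoxb2 had 5.41, 6.90 and 8.30 FPKM in replicates 1, 2 and 3, whereas Hoxa2 stood at 0.988, 0.785 and 1.11, and the log2 ratio of Hoxa2 to Hoxb2 was -2.71 ± 0.329. Hoxb2 and Hoxa2 did not overlap. Hoxb3 stood at 2.53, 2.51 and 3.55, Hoxa3 at 1.81, 1.68 and 2.12, and Hoxd3 at 0.522, 0.35 and 0.371, so the order Hoxb3, Hoxa3, Hoxd3 held in every library. Hoxd1 was low in every library, at 0.0328, 0.0420 and 0.109. The deposited locus of Hoxa3 spans Hoxa4, Hoxa5 and Hoxa6, and that of Hoxd3 spans Hoxd4, so the split of fragments among these genes is uncertain, as it is for any of the 10 Hox genes whose locus overlaps another row.

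The central genes ran from 1.06 FPKM, for Hoxa6 in replicate 2, to 26.2, for Hoxc8 in replicate 1. Number 4 and 5 genes pattern the neck and upper trunk, and Hoxa5 is also needed for lung development in the mouse. Hoxb4 was the steadiest of the detected Hox genes, at 4.63, 4.54 and 4.72 FPKM in replicates 1, 2 and 3. Hoxa4 stood at 2.84, 2.63 and 2.98, Hoxc4 at 4.48, 1.97 and 2.79, and Hoxd4 at 1.14, 1.62 and 1.38. Hoxb4 was thus the highest of the number 4 genes and Hoxd4 the lowest in every library, although Hoxb4 exceeded Hoxc4 by only 0.05 log2 units in replicate 1. Hoxa5 stood at 6.62, 5.92 and 6.06, Hoxb5 at 3.17, 3.41 and 4.71, and Hoxc5 at 5.55, 1.83 and 2.38. Hoxa5 was the highest of its paralogs in 3 of 3 libraries, by 0.73 ± 0.345 log2 units over Hoxb5 and 1.07 ± 0.728 over Hoxc5.

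Numbers 6 and 7 pattern the thoracic trunk. Hoxa6 was low for its place, at 1.35, 1.06 and 1.14 FPKM in replicates 1, 2 and 3, between Hoxa5 and Hoxa7, which were both higher in every library. The log2 ratio was -2.30 ± 0.0867 for Hoxa6 over Hoxa5 and 2.32 ± 0.290 for Hoxa7 over Hoxa6. Hoxb6 stood at 2.72, 5.64 and 4.48 and Hoxc6 at 8.13, 3.50 and 5.64, and they had no common order. Both exceeded Hoxa6, with log2 ratios of Hoxa6 of -1.72 ± 0.695 to Hoxb6 and -2.12 ± 0.438 to Hoxc6. Of the number 7 genes, Hoxb7 stood at 6.40, 8.67 and 8.67 and Hoxa7 at 6.06, 7.11 and 5.70. Hoxb7 was the higher in every library, by as little as 0.08 log2 units in replicate 1.

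Of the posterior genes, numbers 9 to 13, only number 9 genes reached FPKM 1. These genes pattern the lower trunk, the limbs and, at the end of the clusters, the genital and tail region. Hoxb9 had 2.20, 3.48 and 5.09 FPKM in replicates 1, 2 and 3, Hoxd9 had 2.94, 3.70 and 3.54, and Hoxc9 had 2.23, 0.951 and 1.17. Hoxb9 and Hoxd9 overlapped, and Hoxc9 fell under the detection level in replicate 2. Hoxa9 was far lower, with log2 ratios of -4.36 ± 0.755 to Hoxb9, -3.10 ± 0.396 to Hoxc9 and -4.35 ± 0.527 to Hoxd9. The number 10 genes, which specify the lumbar region, were all below 0.6 FPKM in every library: Hoxa10 stood at 0.0278, 0.0288 and 0.0788, and Hoxc10 and Hoxd10 had the values given above. Of number 11, Hoxa11 and Hoxd11 had 0.0261 and 0.00856 in replicate 1 and a listed 0 in the others. Hoxa13 had 0.0247 in replicate 1 and a listed 0 elsewhere.

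Over whole clusters, Hoxb held the largest share of the summed Hox FPKM in replicates 2 and 3 and Hoxc in replicate 1. The Hoxc share was 40.5%, 18.5% and 20.6% in replicates 1, 2 and 3, and the Hoxb share 25.3%, 37.2% and 38.9%. Hoxd held 16.4%, 25.1% and 22.9%, and Hoxa a steady 17.7%, 19.2% and 17.7%. The cluster medians of log2(FPKM + 0.1), averaged over libraries, were 0.08 ± 0.232 for Hoxa, 1.83 ± 0.393 for Hoxb, 0.55 ± 0.599 for Hoxc and -2.09 ± 0.448 for Hoxd, beside -0.19 ± 0.541 for all symbols. By position they were -0.24 ± 0.104 for numbers 1 to 3, 2.12 ± 0.234 for 4 to 8 and -3.21 ± 0.188 for 9 to 13. Summed Hox FPKM was nearly level, at 115.7, 103.2 and 111.7 in replicates 1, 2 and 3.

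The order of levels could be resolved only in part. Among the 21 genes whose mean reached FPKM 1, ranked by mean, the 20 steps between neighbours in rank included 3 with the same direction in every library, 2 larger than the SD of the difference (Hoxb7 over Hoxb2 and Hoxa4 over Hoxa3) and 2 with ranges that did not overlap (Hoxc8 over Hoxb7 and Hoxa4 over Hoxa3). Of the 35 pairs of neighbours along a cluster, 26 kept the same sign in every library, and of the 42 pairs of paralogs, 24 did so. For comparison with the neighbours, 72.1% of the ratios between adjacent symbols along the genome had 1 sign in every library. No such share was computed for the paralogs, which lie on different chromosomes. A pair with both genes listed at 0, such as Hoxc12 and Hoxd12, cannot have a sign. Of the paralog pairs with both means at FPKM 1 or more, 14 of 20 had 1 sign. Where both genes had a mean FPKM of 1 or more, 15 of 17 Hox neighbours had 1 sign, beside 86.8% genome-wide, and 9 of 17 also differed at least 2-fold, beside 67.7%. The share of Hox neighbours with 1 sign was near that of other adjacent genes.

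The clusters moved apart between libraries. After centring each library on its median over the 11993 symbols whose mean reached FPKM 1, all 5 Hoxc genes among them were higher in replicate 1 than in both other libraries, and all 8 Hoxb and all 3 Hoxd genes were lower. In all, 6 of 21 Hox genes were highest in replicate 1 and 13 were lowest there, beside 37.2% and 45% of those symbols. Without centring, 7 Hox genes were highest and 9 lowest in replicate 1, beside 46.7% and 32.8% of those symbols. Hoxa3, Hoxa4, Hoxb3 and Hoxb4 were then no longer lowest there, with 1.81, 2.84, 2.53 and 4.63 FPKM in replicate 1 against 1.68, 2.63, 2.51 and 4.54 in replicate 2, and Hoxa5 became highest. All 5 Hoxc genes stayed highest and all 3 Hoxd genes lowest. The centred log2 difference, replicate 1 minus the mean of replicates 2 and 3, had a median of 0.89 for Hoxc, -0.58 for Hoxb, -0.49 for Hoxd and -0.10 for Hoxa, beside -0.04 for all symbols, whose quartiles were -0.33 and 0.31. For Hoxd it was -0.30 without replicate 2 and -0.68 without replicate 3, and for Hoxa -0.03 without replicate 2. It was largest for Hoxc5 at 1.25 and Hoxc8 at 1.17, and lowest for Hoxb9 at -1.03 and Hoxb6 at -0.99. The library medians used for centring lay at 3.29, 3.08 and 3.25. Centring does not touch ratios within a library, and the log2 ratio of summed Hoxb to summed Hoxc FPKM, over genes with a mean of 1 or more, was -0.67 in replicate 1, 1.01 in replicate 2 and 0.95 in replicate 3. The 3 libraries are replicates of 1 group, so these differences are a description and were not tested.

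**Figure D4:**
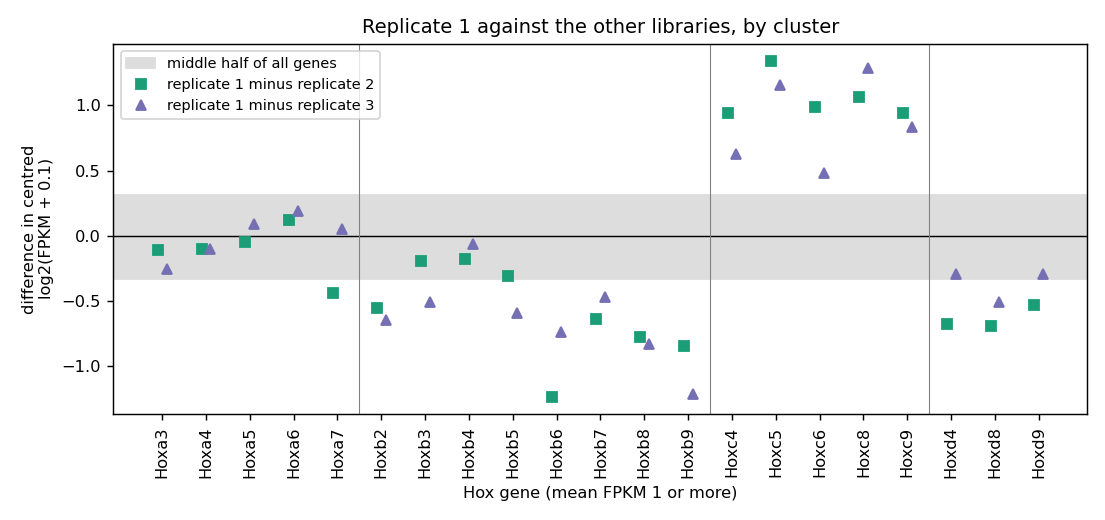
Difference in centred log2(FPKM + 0.1) between replicate 1 and each of the other libraries, for the 21 Hox genes whose mean reached FPKM 1, ordered by cluster. The grey band runs between the quartiles of all 11993 symbols for replicate 1 minus the mean of the others. All Hoxc points lie above 0 and all Hoxb and Hoxd points below it, although without centring Hoxb3 and Hoxb4 were not lowest in replicate 1.

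Replicate 1 also stood apart in cell type markers. The 9 adipocyte markers were detected in every library and summed to 12569, 3986 and 4212 FPKM in replicates 1, 2 and 3, with 9 of 9 highest in replicate 1 after centring. Of all symbols with a mean of FPKM 1 or more, 37.2% were highest and 45% lowest there after centring. Without centring these shares were 46.7% and 32.8%. Marker counts are after centring unless stated otherwise. The 7 endothelial markers summed to 988, 2118 and 1977, with 7 of 7 lowest in replicate 1. Of the 7 mesothelial markers, at 35.9, 64.5 and 137.8, 6 were lowest there, as were 8 of 10 preadipocyte and fibroblast markers, at 801, 933 and 1160, and 5 of 6 mural markers, at 365, 481 and 853. The 7 macrophage markers summed to 2480, 1897 and 2112, with 4 of 7 highest in replicate 1 after centring. Without centring, 6 of 7 macrophage markers were highest there and 4 of 6 mural markers lowest. The 6 spermatid markers summed to 1179 FPKM in replicate 1, against 20.9 and 9.48 in replicates 2 and 3. Without centring, 6 of 6 were highest in replicate 1. Insl3, a Leydig cell marker, stood at 31.9 against 0.0497 and 0.557. The 5 Leydig markers summed to 35.8, 1.31 and 2.16, nearly all of it Insl3 in replicate 1. Without centring, 4 of the 5 were highest in replicate 1. Besides Insl3 these were Cyp17a1 at 1.05 against 0.0426 and 0.0157, Cyp11a1 at 0.902 against 0.0253 and 0.279, and Hsd3b6 at 0.824 against a listed 0. Star, the only one detected in every library, was level at 1.21, 1.19 and 1.31. The 6 epididymis markers summed to 18.0, 0.483 and 1.22, with Defb20 and Lcn5 at 0 throughout. The 7 Sertoli markers were mixed. Their sum of 51.0, 78.6 and 137.1 followed Clu, at 47.4, 74.0 and 127.9. Without centring, 4 of the 7 (Sox9, Rhox5, Gata4 and Cldn11) were highest in replicate 1, Sox9 at 1.48 against 0.514 and 0.746. Rhox5, Gata4 and Cldn11 reached only 0.140, 0.153 and 0.392 there. The other 3 (Clu, Dhh and Amh) were lowest in replicate 1, Dhh at 1.44 against 3.96 and 7.58. The part of these cell types in the Hox differences was not tested. In bulk RNA fewer cells of a type and less RNA per cell cannot be told apart. No values here show which cells of the preparation carry the Hox transcripts.

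The cofactors with which Hox proteins bind DNA are the TALE homeodomain proteins, the PBX family and the MEIS and PREP (Pknox) families. Of 9 genes, 7 were detected in every library, beside 45.5% of all symbols. Pbx2 was the highest at 16.0, 17.7 and 16.5 FPKM in replicates 1, 2 and 3. Pbx3 stood at 5.97 ± 1.29 (SD, n = 3), Pknox1 at 5.24 ± 1.05, Meis3 at 5.03 ± 0.599, Meis1 at 2.46 ± 0.739 and Meis2 at 1.76 ± 0.545. Pknox2 averaged 0.404 ± 0.233, and Pbx4 stood at 1.27 in replicate 1 against 0.103 and 0.0904 in replicates 2 and 3. Pbx4 is known from testis, and the spermatid markers were also highest in replicate 1; their part in its level was not tested.

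Of the 17 measured non-coding RNAs of the clusters, 3 were detected in every library, beside 45.5% of all symbols, and all 3 belong to Hoxa. Hotairm1, transcribed beside Hoxa2, stood at 36.7, 21.2 and 49.3 FPKM, and Mira, between Hoxa6 and Hoxa7, at 16.5, 18.8 and 14.6. Both exceeded every Hoxa coding gene in each library. Halr1, outside the cluster on the side of Hoxa2, stood at 1.05, 1.69 and 2.27. Hotair, between Hoxc11 and Hoxc12, and Hottip, beyond Hoxa13, were listed at 0 in every library, as were the miRNA genes Mir10a, Mir10b, Mir196a-1, Mir196a-2, Mir196b and Mir615, whose short products such libraries do not measure. Hoxaas2, at 0.144 ± 0.0132, was low, and Hoxaas3, Hoxb5os, Haglr, Hoxd3os1 and Hoxa11os each lay under 1 FPKM in every library and were listed at 0, or in the case of Hoxaas3 near it, in at least 1. Whether the libraries kept strand is not given, so reads of a coding gene and an antisense transcript over it cannot be told apart.

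Of 13 measured genes outside the clusters, 9 were detected in every library, beside 45.5% of all symbols, and the other 4 were the Evx genes and those near Hoxb. Evx2, the homeobox gene next to Hoxd13, was listed at 0 throughout, and Evx1, next to Hoxa13, had 0.0101 FPKM in replicate 1 and was listed at 0 in the others. On the side of Hoxa2, Skap2 averaged 43.6 ± 4.04 FPKM and Snx10 13.7 ± 4.75, and beyond Evx1, Hibadh and Tax1bp1 averaged 65.4 ± 35.9 and 56.9 ± 8.72. Around Hoxd, Mtx2 averaged 20.2 ± 2.29, Hnrnpa3 41.5 ± 2.17 and Atf2 9.74 ± 0.905. Around Hoxc, Calcoco1 averaged 31.8 ± 2.85 and Smug1 1.71 ± 0.210. Near Hoxb, Skap1 averaged 0.191 ± 0.0941, and Ttll6 had 0.722 in replicate 1 and a listed 0 elsewhere.

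**Figure D5:**
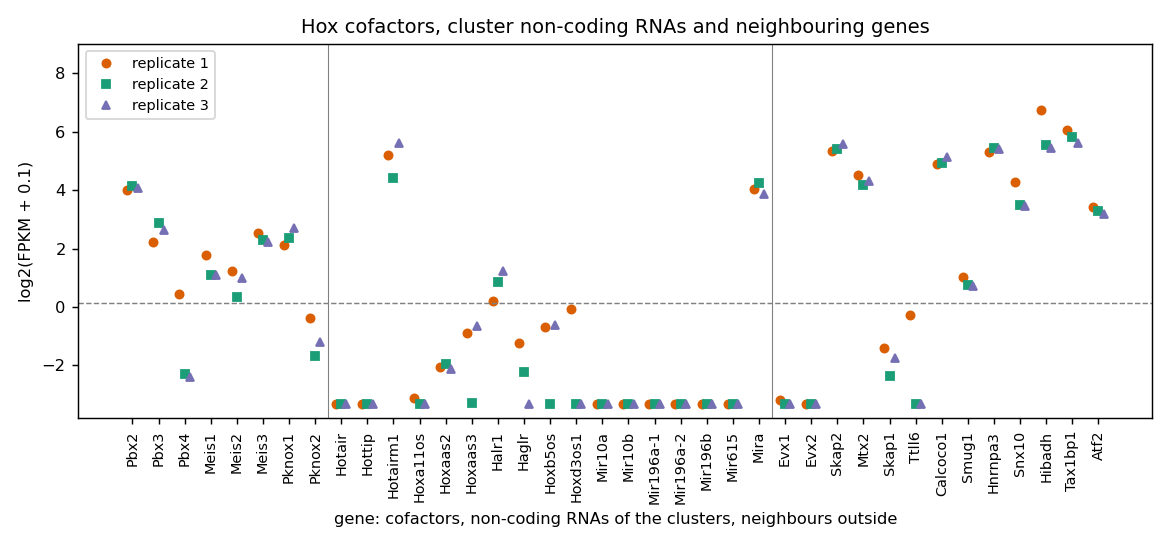
Levels as log2(FPKM + 0.1) of 8 Hox cofactors, the non-coding RNAs of the clusters and the genes outside the clusters, separated by grey lines, with 1 symbol per library and the dashed line at FPKM 1. Points at the bottom are listed at 0. Hotairm1 and Mira are the highest of the non-coding RNAs, and Pbx4 and Ttll6 are higher in replicate 1 than in the others.

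Polycomb proteins hold silent Hox genes in a repressed state through methylation of histone H3 lysine 27 and ubiquitination of H2A, and 22 of 24 genes of this list were detected in every library, beside 45.5% of all symbols. Its highest members by mean were Rbbp7 at 52.9 ± 1.48 FPKM, Phc2 at 47.9 ± 19.1 and Rbbp4 at 30.3 ± 0.931, and the lowest was Cbx2 at 0.593 ± 0.141. Of the enzymes that methylate lysine 27, Ezh1 stood at 13.7 ± 1.18, above Ezh2 at 2.52 ± 0.702. Trithorax proteins and lysine 27 demethylases oppose them, and 11 of 11 measured genes were detected, beside the same 45.5%, led in mean by Kdm6b at 44.0 ± 8.63, Dpy30 at 27.8 ± 2.06 and Wdr5 at 12.0 ± 1.87, with Kmt2a the lowest at 3.46 ± 0.471. Retinoic acid induces Hox genes in the embryo in the order of the cluster. Of its 16 genes 13 were detected, again beside 45.5%, led in mean by Dhrs3 at 93.1 ± 15.4, Aldh1a1 at 61.7 ± 20.1 and Rarg at 33.7 ± 6.75, and Crabp1 was the lowest, at 0.0927 in replicate 1 and listed at 0 in the others. None of the 6 ParaHox and Cdx genes, relatives of the Hox genes that act in the gut and the tail bud, was detected. Gsx1, Gsx2, Pdx1 and Cdx4 were listed at 0, Cdx2 had 0.0140 in replicate 1 only, and Cdx1 had 0.0333 in replicate 3 only.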

How the data were processed

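The values are FPKM per gene, as the authors named the deposited table, with 1 column per library, and which program made them is not given. Per the submitters' processing notes, Bismark 0.22.1, Trim Galore 0.5.0, featureCounts and the builds mm10 and GRCm38 were named, with no role stated. The smallest positive value was 6.06e-62, far under what a whole fragment is worth. How a listed 0 arose is not given, and a failed estimate is possible. Ratios of low values (under 0.15 FPKM, bins of 0.02 log2 units) shared a common step in at most 9.66% of rows, so depth is unknown and no count test was run.

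From 24889 rows, 27 with a calendar date for a symbol were left out, and for a symbol with several rows the one with the highest mean was kept, which touched 0 Hox genes. Locus starts are given counted from 1. All 39 Hox symbols were found in RefSeq GRCm38.p6, 24 with the same start and 25 with the same end. Levels were put on the log2(FPKM + 0.1) scale, which understates ratios of genes near 0. Ratios between genes of 1 library were tested by an exact sign-flip permutation (two-sided), adjusted after Benjamini and Hochberg over all 77 pairs, and the test was tried on simulated data. The Hox genes and the 18 accompanying lists (189 genes) were chosen with earlier results of these data known. Hox genes, cofactors, cluster RNAs and neighbours are named, apart from 2 genes that stay in the counts, medians and sums and are not reported here by name, and of other lists the 3 highest and the lowest, except that markers were left out for length and Ezh1, Ezh2, the Leydig and Sertoli markers, Nr2f1 and Tbx15 with the other silent positional genes were added after their values were seen. Alternatives were another pseudocount or detection level, TPM, means, filters, summed rows, no centring and leaving out each library. Python 3.11.15, numpy 2.4.6, pandas 2.3.3 and matplotlib 3.10.9 were used.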

Additional observations from a re-analysis of the deposited data

How the results depend on the processing

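The count of 20 detected Hox genes was between 15 and 22 under every alternative tried. It was 22 at FPKM 0.5, 15 at FPKM 2 and 22 after rescaling to TPM. By the mean it was 21 (chosen after seeing the data), and without each library 20 to 21. FPKM summed to 504178, 488721 and 524092 in replicates 1, 2 and 3, so TPM 1 lay near FPKM 0.5. The counts at TPM 1 and FPKM 0.5 are thus not separate checks. Summing rows of a symbol moved no value beyond the spread. The median levels moved with the scale, as a median of log values must. With a pseudocount of 1 those of Hoxa, Hoxc and Hoxd were 0.97, 1.26 and 0.19, and those of numbers 1 to 3, 4 to 8 and 9 to 13 were 0.82, 2.39 and 0.0120. With a pseudocount of 0.01 those of Hoxd, numbers 1 to 3 and numbers 9 to 13 were -2.85 (Hoxd), -0.41 and -6.04. In TPM those of Hoxa, Hoxb, Hoxc and Hoxd were 0.99, 2.80, 1.48 and -1.47, and those of numbers 1 to 3 and 4 to 8 were 0.65 and 3.09. As means over genes those of Hoxa, Hoxb, Hoxc, Hoxd and numbers 9 to 13 were -0.37, 1.05, -0.19, -1.02 and -2.17. Over only the genes whose mean reached FPKM 1, the medians of Hoxa, Hoxc, Hoxd, numbers 1 to 3 and numbers 9 to 13 were 1.54, 1.69, 1.80, 1.55 and 1.64, with fewer genes, and 14 paralog and 15 neighbour pairs had 1 sign, from fewer pairs. Numbers 4 to 8 had the highest median of the position classes under every one of these alternatives.

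The median difference of replicate 1 from the others was 0.63 for Hoxc and -0.51 for Hoxb with a pseudocount of 1, and -0.62 for Hoxb in TPM. Without centring it was -0.0710 for all Hox genes, 0.0225 for Hoxa, -0.45 for Hoxb and 1.01 for Hoxc, and with no filter on low values -0.12, 0.0199, -0.50 and 0.73. Hoxa thus lay on either side of 0, while Hoxb stayed below and Hoxc above. Without replicate 2 or 3 it ranged from -0.62 to -0.60 for Hoxb, from -0.68 to -0.30 for Hoxd, from -0.10 to -0.03 for Hoxa and from 0.83 to 0.98 for Hoxc. The counts of genes highest or lowest without centring were added after seeing the data. No paired analysis was possible because only 1 group had expression values. Depth is unknown, so how firmly genes under 1 FPKM are absent cannot be judged.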

Other observations

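Other transcription factors known to mark fat depots were detected in every library for 4 of 20 genes, beside 45.5% of all symbols. Irx3, a homeobox gene of fat and its precursors, was the highest by mean, at 6.30, 14.9 and 16.3 FPKM in replicates 1, 2 and 3, although Tcf21 exceeded it in replicate 1. Tcf21, which marks visceral fat precursors in the mouse, stood at 13.3, 6.25 and 10.8, Osr1 at 5.63, 7.89 and 15.3, and Wt1, known from mesothelium and visceral fat, at 2.87, 1.89 and 3.64. Nr2f1 stood at 2.14, 0.823 and 1.90. Tbx15, known from subcutaneous and brown fat, had 0.0402 and 0.0228 in replicates 1 and 3 and a listed 0 in replicate 2. Shox2 stood at 0.762, 0.507 and 1.33, Bnc1 at 0.224, 0.389 and 0.952 and Hand2 at 0.0936, 0.0404 and 0.329. Since no other depot was sampled, whether any of these levels is particular to this one cannot be read. En1, Lhx8, Zic1 and Sim1 were listed at 0 in every library. Of the 4 genes detected in every library, Irx3 and Osr1 were lowest in replicate 1. Tcf21 was highest there, and Wt1 lay between its values in the others. After centring, 6 of 7 mesothelial, 7 of 7 endothelial, 8 of 10 preadipocyte and fibroblast and 5 of 6 mural markers were also lowest there. So were 45% of symbols with a mean of FPKM 1 or more. A link of Irx3 and Osr1 to any of these markers was not tested.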
